A study of Homo sapiens with 6 samples.

Results

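The genes described here encode the regulators that choose splice sites: the serine and arginine rich (SR) proteins, the SR-related factors, the CLK kinases that phosphorylate them, the heterogeneous nuclear ribonucleoproteins (hnRNPs), and the polypyrimidine tract binding (PTB) and neuronal splicing regulators. They were chosen by symbol, as SRSF followed by a number, as any symbol starting with HNRNP, or as one of 15 named genes. No measured value entered this rule, but earlier results of these data were known when the genes were chosen. The rule gave 54 of the 19923 genes in the count tables, made up of 12 SR proteins, 6 SR-related factors, 4 CLK kinases, 27 hnRNP symbols and 5 PTB and neuronal regulators. RNA-seq of poly(A) RNA was made from Kelly cells, an established human neuroblastoma line with amplified MYCN that the labels give as wild type. The cells were collected 72 hours after lipid transfection of a control siRNA (siControl, 3 libraries) or an siRNA against METTL3 (siMETTL3, 3 libraries), and the labels give no other difference between the groups. No label says that libraries of a group came from separate cultures, and p-values then measure the spread between these libraries, which may be technical.

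SR proteins bind exonic enhancers in pre-mRNA through RNA recognition motifs and recruit the spliceosome through a domain of arginine and serine repeats. hnRNPs coat nascent transcripts and often act in the opposite direction, by keeping the spliceosome off an exon. METTL3 is the catalytic subunit of the enzyme that writes N6-methyladenosine (m6A) in mRNA, and the mark has been linked to both families: the nuclear reader YTHDC1 is known to recruit SRSF3 and to hold back SRSF10, HNRNPC binds U-tracts that m6A exposes, and HNRNPA2B1 has been proposed as a reader. In neurons, PTBP1 gives way to its paralog PTBP2, and SRRM4 and the NOVA proteins direct neuronal exons.

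Total counts per library ranged from 15430000 (siControl replicate 3) to 21565013 (siMETTL3 replicate 2). METTL3 itself was at 53.5, 52.8 and 56.2 CPM in siControl and 32.99, 31.8 and 34.3 CPM in siMETTL3 (CPM, counts per library size with TMM scaling), so the METTL3 count stood at 61.0% of the control level (edgeR FDR 4.68e-06). Its span overlaps that of TOX4 (log2 fold change -0.20, edgeR FDR 0.0431), the reads they share are counted for each, and introns count too, so this share is that of the count and not of the mRNA alone. Of the markers of noradrenergic neuroblastoma, 10 of 10 were detected in all 6 libraries, with a summed level of 6395 to 6867 CPM in siControl and 9295 to 9901 CPM in siMETTL3, of which MYCN gave the most; 7 of the 10 were called higher and 1, ISL1, lower. The marker sums of Schwann, immune, endothelial and epithelial cells stayed at or under 8.31 CPM in every library, with the Schwann marker S100B and the T cell marker CD3E at 0 in 5 of 6 libraries each, and that of the mesenchymal list, nearly all PDGFRB, was 85.3 to 99.2 CPM in siControl and 87.2 to 93.8 CPM in siMETTL3. Whether the shift in the noradrenergic markers has a part in the results was not tested, and in bulk RNA fewer cells of a type and less RNA per cell cannot be told apart.

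Of the 54 genes, 51 passed the filter on low counts. The other 3, HNRNPCL2, HNRNPCL3 and HNRNPCL4, had 0 to 10 counts in every library. In siMETTL3, 19 of the 51 were lower and 4 were higher at an adjusted p-value (FDR, Benjamini-Hochberg over all 15311 genes tested with edgeR's quasi-likelihood test) under 0.05, and 28 were not past that threshold. The background in this comparison was high, since 37.8% of all genes were called, 18.6% higher and 19.2% lower. The members were called in 45.1% of cases, with 37.3% lower and 7.84% higher. Their median log2 fold change was -0.085, against -0.0021 over all genes tested. In 30 of the 51 the 3 values of one group stood clear of the 3 values of the other, as in 49.9% of all genes. All 23 called members were among them, but so were 5660 of the 5786 called genes. A call thus nearly always comes with groups that do not overlap, and the separation adds little to it. The siMETTL3 values lay all above in 7 members (24.8% of all genes) and all below in 23 (25.1% of all genes). The changes were small: the median absolute log2 fold change of the called members was 0.33, against 0.39 for all called genes, and none reached 2-fold, against 513 of the 5786 called genes. A log2 fold change of -0.33 leaves about 79.5% of the control level, the value of HNRNPK.

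**Figure D1:**
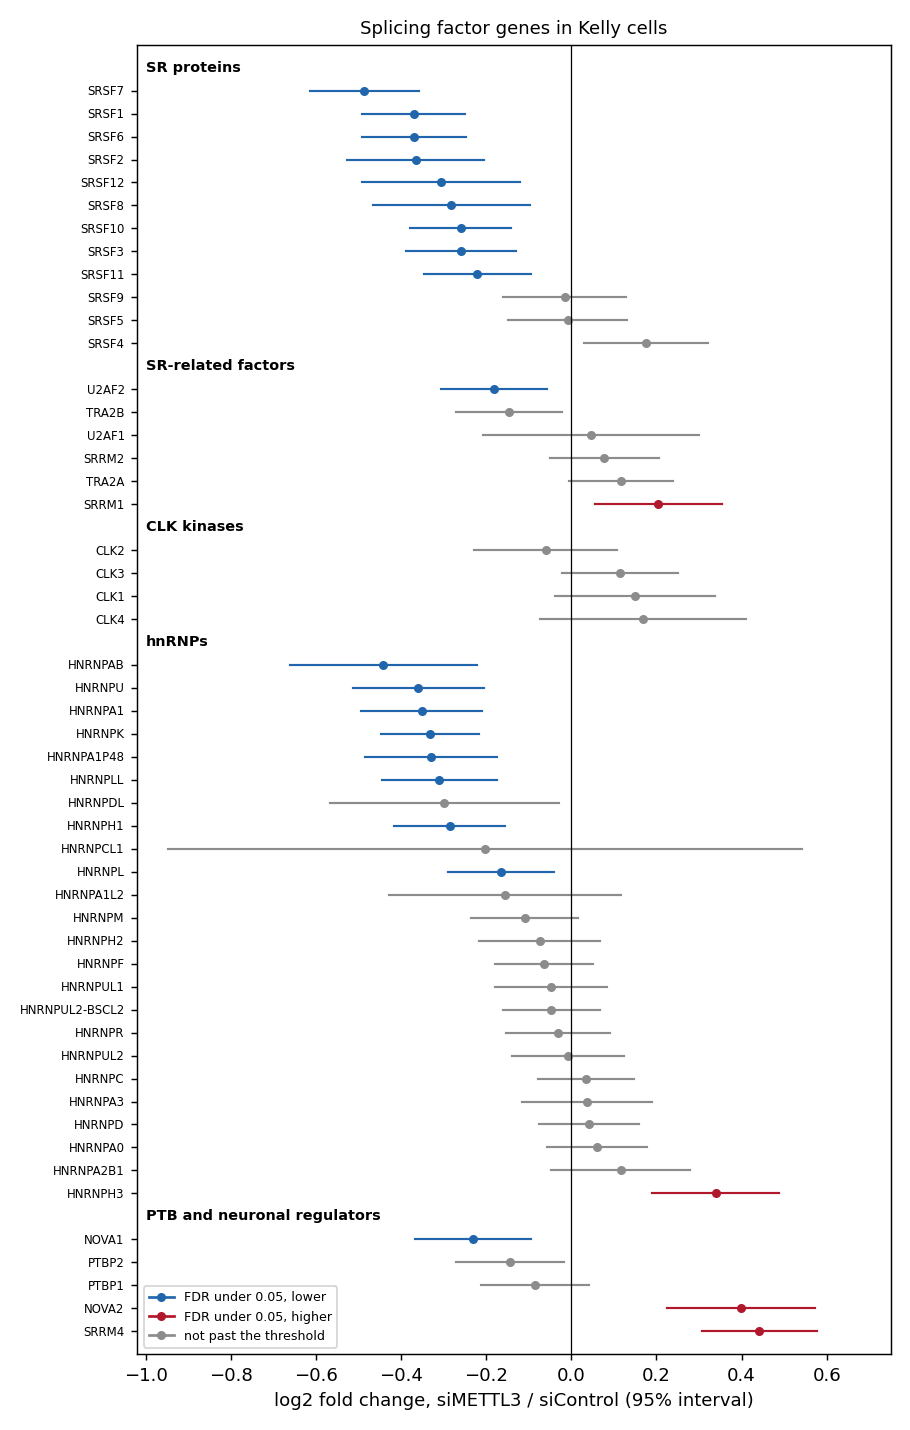
Log2 fold change of siMETTL3 over siControl (horizontal axis) with its 95% interval for the 51 genes tested, grouped by role; blue and red mark an FDR under 0.05. The blue points gather in the SR proteins (9 of 12) and the upper part of the hnRNPs (8 of 24), while all 4 CLK kinases are grey.

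The SR proteins moved mostly downward. Of the 12 genes, 9 fell (SRSF1, SRSF2, SRSF3, SRSF6, SRSF7, SRSF8, SRSF10, SRSF11 and SRSF12), none rose, and SRSF4, SRSF5 and SRSF9 did not pass the threshold. The share lower was 75%, beside 19.2% of all genes lower and 18.6% higher. The median log2 fold change of the class was -0.27. Summed over the 12 genes, the level was 2272, 2417 and 2545 CPM after siControl and 1978, 1962 and 2008 CPM after siMETTL3, so that the siMETTL3 mean stood at 82.2% of the siControl mean.

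SRSF7, an SR protein with a zinc knuckle that also serves in mRNA export, moved most (chr2:38743599-38751494, minus strand). SRSF7 was measured at 223, 239 and 250.5 CPM after siControl and at 164, 168 and 176 CPM after siMETTL3. Every siMETTL3 value lay under every siControl value, and the mean went from 238 ± 13.8 to 169 ± 6.13 CPM (SD, n = 3) (log2 fold change -0.49 with a standard error (SE) of 0.060, edgeR FDR 3.34e-05). SRSF1, the founding member of the family and a known oncogene, lies at chr17:58000919-58007346, minus strand. It was at 460.4, 488 and 502 CPM in siControl and 365, 375 and 382 CPM in siMETTL3 (log2 fold change -0.37, SE 0.056, edgeR FDR 0.000193). SRSF6 was at 228, 247 and 252 CPM in siControl and 189, 188 and 185 CPM in siMETTL3 (log2 fold change -0.37, SE 0.057, edgeR FDR 0.000208). The 3 siMETTL3 values of SRSF6 spanned only 185 to 189 CPM.

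SRSF2, which is recurrently mutated in myeloid neoplasms, was at 282, 325 and 355 CPM in siControl and 255, 242 and 249 CPM in siMETTL3 (log2 fold change -0.37, SE 0.074, edgeR FDR 0.00174). Its siControl libraries were far more spread than its siMETTL3 libraries. SRSF8, a gene related to SRSF2, was at 35.6, 41.6 and 42.3 CPM in siControl and 31.0, 32.3 and 34.8 CPM in siMETTL3 (log2 fold change -0.28, SE 0.086, edgeR FDR 0.0191). SRSF12 was the SR protein gene with the fewest counts, at 27.6, 27.9 and 30.3 CPM in siControl and 23.9, 21.4 and 24.0 CPM in siMETTL3 (log2 fold change -0.31, SE 0.087, edgeR FDR 0.0129). For all 3 genes the siMETTL3 values again lay below the siControl values without overlap.

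The pair of SR proteins tied to the m6A reader YTHDC1 fell by nearly the same amount, which was close to the class median of -0.27 and does not set the pair apart. SRSF3, the smallest SR protein (chr6:36594353-36605600, plus strand), was at 301, 317 and 335 CPM in siControl and 266, 253 and 277 CPM in siMETTL3 (log2 fold change -0.26, SE 0.060, edgeR FDR 0.00392). SRSF10, a repressor of splicing when dephosphorylated and an activator when phosphorylated, was at 180.3, 188 and 194 CPM in siControl and 156, 154 and 161 CPM in siMETTL3 (log2 fold change -0.26, SE 0.055, edgeR FDR 0.00218). YTHDC1 itself fell as well, from 97.0 ± 1.28 to 85.2 ± 2.12 CPM (SD, n = 3) (log2 fold change -0.19, edgeR FDR 0.0172). Its call was lost when siControl replicate 2, or either of siMETTL3 replicates 1 and 2, was dropped (edgeR FDR 0.0705, 0.0801 and 0.0624). SRSF11, described as a partner of SRRM4 on neuronal microexons, was at 243, 252 and 269.9 CPM in siControl and 220.0, 211 and 225 CPM in siMETTL3 (log2 fold change -0.22, SE 0.058, edgeR FDR 0.00870).

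The 3 SR genes that did not pass the threshold differed among themselves. SRSF4 pointed upward, at 82.8, 73.0 and 74.8 CPM in siControl and 84.9, 92.3 and 83.5 CPM in siMETTL3 (log2 fold change 0.18, edgeR FDR 0.0544, 95% interval 0.031 to 0.32). Its groups did not overlap, and without siControl replicate 1 it passed the threshold (0.23, edgeR FDR 0.00846). With all 6 libraries it also passed under upper quartile and total count scaling (edgeR FDR 0.0401 and 0.0397). A filter of 10 counts as a minimum and a replicate block gave the same (edgeR FDR 0.0472 and 0.0475). SRSF5 was at 115, 116 and 134 CPM in siControl and 122, 120.4 and 121 CPM in siMETTL3, with a 95% interval of the log2 fold change of -0.15 to 0.13. SRSF9 was at 94.0, 102 and 105 CPM in siControl and 101.3, 105 and 91.2 CPM in siMETTL3, with an interval of -0.16 to 0.13. In both genes the groups overlapped.

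**Figure D2:**
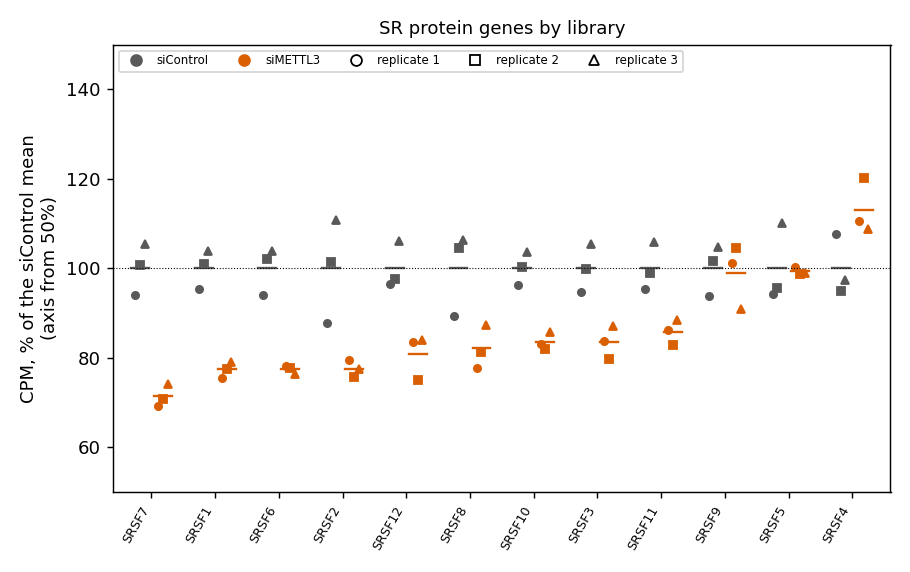
Level of each SR protein gene in each library as a percentage of its siControl mean (vertical axis, which starts at 50%); grey marks siControl, orange siMETTL3, symbols the replicates and short lines the group means. In 9 genes all orange symbols lie below all grey ones, and siControl replicate 3 (grey triangle) is the highest library of those 9.

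siControl replicate 3, the shallowest library, held the highest siControl value in 18 of the 19 called lower members, in all 9 of the SR proteins among them. Without that library the SR count was still 9 and that of lower members 19, with HNRNPL out and PTBP1 in. The SR count dropped to 6 without siMETTL3 replicate 2, when SRSF8, SRSF11 and SRSF12 missed the threshold (edgeR FDR 0.0686, 0.0554 and 0.0682). SRSF8 also missed it without siControl replicate 2 or siMETTL3 replicate 1 (edgeR FDR 0.0893 and 0.0944). In the tables a read over several genes counts for each of them, and the SRSF1, SRSF2 and SRSF6 spans lie wholly or almost wholly (SRSF1 98.4%, SRSF6 98.0%) under gene models named after clones, which share their reads. SRSF2 also overlaps MFSD11 over 46.3% of its span, and MFSD11 was lower too (log2 change -0.31, edgeR FDR 0.00478). How many reads come from the overlaps was not measured. When genes with any overlap were set aside, these 3 went with them and the other 6 of the 9 were still lower.

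The upstream sequences of 3 genes are shown because SRSF7 and SRSF3 belong to the group that moved down together and SRRM4, described further on, had the largest rise among the members. Each holds the 250 bases before the RefSeq start site (GRCh38.p14), 5′ to 3′ on the strand of the gene, and capitals mark matches to any of 5 searched motifs on either strand: the E-box of MYC family proteins (CACGTG), the box read by NF-Y (CCAAT), the GC box read by SP1 proteins (GGGCGG), the site of many ETS factors (CCGGAAG) and the core promoter element bound by TBP (TATAAA). The SRSF7 window is chr2:38751495-38751744, minus strand, the SRSF3 window chr6:36594112-36594361, plus strand, and the SRRM4 window chr12:118981291-118981540, plus strand.
SRSF7: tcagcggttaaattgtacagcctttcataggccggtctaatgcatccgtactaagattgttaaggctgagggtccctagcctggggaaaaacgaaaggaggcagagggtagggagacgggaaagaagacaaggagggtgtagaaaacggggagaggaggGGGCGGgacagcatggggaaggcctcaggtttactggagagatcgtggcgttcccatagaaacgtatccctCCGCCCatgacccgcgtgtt
SRSF3: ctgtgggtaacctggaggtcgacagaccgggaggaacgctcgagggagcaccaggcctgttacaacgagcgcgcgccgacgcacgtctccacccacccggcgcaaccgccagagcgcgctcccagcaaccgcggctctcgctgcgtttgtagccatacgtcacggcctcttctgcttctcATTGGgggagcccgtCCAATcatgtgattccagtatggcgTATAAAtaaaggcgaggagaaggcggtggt
SRRM4: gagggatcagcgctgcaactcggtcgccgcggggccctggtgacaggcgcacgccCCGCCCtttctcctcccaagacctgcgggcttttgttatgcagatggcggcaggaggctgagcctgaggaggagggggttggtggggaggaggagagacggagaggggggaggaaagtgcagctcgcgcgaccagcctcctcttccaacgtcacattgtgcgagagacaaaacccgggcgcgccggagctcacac
SRSF7 held GGGCGG on both strands, SRSF3 a pair of CCAAT boxes in opposite orientation ahead of a TATAAA, and SRRM4 a single match to GGGCGG on the minus strand. RefSeq windows were found for 49 of the 54 genes. CACGTG occurred in 0 of 16 windows of lower members, in 1 of 4 of higher members and in 7 of 27 of members that were not called, against 8.52% of the windows of tested genes and 6.49% of all 27305 windows of the same length. GGGCGG occurred in 33 of the 49 windows (67.3%), against 64.5% of the 11813 windows of tested genes and 42.3% of all windows. CCAAT occurred in 22 windows (44.9%), against 34.7% of those of tested genes and 33.04% of all windows. CCGGAAG occurred in 6 windows (12.2%), against 14.4% of those of tested genes and 8.82% of all windows. TATAAA occurred in 5 windows (10.2%), against 6.01% of those of tested genes and 11.1% of all windows. These matches describe letters in a window, and binding was not measured.

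Among the 6 SR-related factors, 1 fell, 1 rose and 4 were not past the threshold, so that 33.3% were called, beside 37.8% of all genes. U2AF2, the large U2AF subunit that reads the polypyrimidine tract, was at 199, 198 and 186 CPM in siControl and 171, 179.9 and 164 CPM in siMETTL3 (log2 fold change -0.18, SE 0.058, edgeR FDR 0.0234). SRRM1, a splicing coactivator that bridges SR proteins and snRNPs, was at 88.4, 79.0 and 92.8 CPM in siControl and 104, 94.1 and 102 CPM in siMETTL3 (log2 fold change 0.20, SE 0.070, edgeR FDR 0.0320). Neither call was firm. U2AF2 missed the threshold when siControl replicate 2, or either of siMETTL3 replicates 1 and 3, was dropped (edgeR FDR 0.0966, 0.0923 and 0.122), and SRRM1 when the same libraries were (edgeR FDR 0.175, 0.141 and 0.111). With an offset for gene span SRRM1 was at 0.13 (edgeR FDR 0.184), and with one for GC and transcript length U2AF2 was at -0.32 (edgeR FDR 2.64e-05).

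TRA2A and TRA2B, the human homologues of the fly sex determination factor transformer 2, pointed in opposite directions. TRA2B was at 367, 396 and 409 CPM in siControl and 346, 350.0 and 362 CPM in siMETTL3 (log2 fold change -0.15, edgeR FDR 0.0623), and TRA2A at 149, 135 and 137 CPM in siControl and 154, 151 and 152 CPM in siMETTL3 (log2 fold change 0.12, edgeR FDR 0.122). In each gene the groups stood just apart, and without siControl replicate 1 both passed the threshold (edgeR FDR 0.0105 and 0.0319). SRRM2, a scaffold of nuclear speckles, was at 219, 212 and 229 CPM in siControl and 238, 240.3 and 217 CPM in siMETTL3 (edgeR FDR 0.334). U2AF1, the small U2AF subunit that reads the AG at the 3′ splice site, was counted at only 11.4, 11.4 and 9.69 CPM in siControl and 10.7, 11.9 and 11.1 CPM in siMETTL3 (edgeR FDR 0.793). Of its transcript's 50-base words, 98.7% also occur in another GENCODE gene, so that reads of U2AF1 can rarely be placed in 1 locus and its count is uncertain.

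The CLK kinases, which phosphorylate the arginine and serine repeats of SR proteins and so move them out of nuclear speckles, gave no call. CLK1 was at 43.3, 40.0 and 39.5 CPM in siControl and 46.9, 39.7 and 49.8 CPM in siMETTL3 (log2 fold change 0.15, edgeR FDR 0.197, 95% interval -0.037 to 0.34). CLK4 was at 19.8, 19.2 and 19.0 CPM in siControl and 20.9, 18.7 and 25.7 CPM in siMETTL3 (log2 fold change 0.17, edgeR FDR 0.264, 95% interval -0.074 to 0.41). In both, siMETTL3 replicate 3 was the highest library and siMETTL3 replicate 2 lay within the siControl range or below it. Without siMETTL3 replicate 3 the log2 fold change was 0.080 for CLK1 and 0.034 for CLK4, and without siMETTL3 replicate 2 it was 0.24 and 0.26, none past the threshold. CLK3 was at 89.6, 91.4 and 81.6 CPM in siControl and 91.5, 93.7 and 99.1 CPM in siMETTL3 (log2 fold change 0.11, edgeR FDR 0.180) with its groups just apart. EDC3 overlaps 31.7% of the CLK3 span and 10317 of its 13139 exonic bases. EDC3 was at 84.0 CPM in siControl and 87.7 CPM in siMETTL3 on average (edgeR FDR 0.517). How many reads CLK3 and EDC3 share was not measured, so the CLK3 level is uncertain. CLK2 was at 50.9, 47.9 and 47.0 CPM in siControl and 45.2, 51.6 and 43.0 CPM in siMETTL3 (log2 fold change -0.061, edgeR FDR 0.584). The interval of CLK2 was -0.23 to 0.11 and that of CLK3 -0.023 to 0.25. With an offset for GC and transcript length, chosen after seeing the data, CLK1 (0.24, edgeR FDR 0.0246) and CLK4 (0.27, edgeR FDR 0.0466) passed the threshold upward and CLK2 (-0.18, edgeR FDR 0.0497) downward.

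Of the 24 hnRNPs tested, 8 fell (HNRNPA1, HNRNPA1P48, HNRNPAB, HNRNPH1, HNRNPK, HNRNPL, HNRNPLL and HNRNPU), 1 rose (HNRNPH3) and 15 were not past the threshold. The share called, 37.5%, stood beside 37.8% of all genes, but by direction 33.3% were lower and 4.17% higher, beside 19.2% and 18.6% of all genes, and 18 of the 24 fold changes were negative. The median log2 fold change was -0.092. The level summed over the 27 symbols was 5514, 5662 and 6154 CPM after siControl and 5274, 5367 and 5232 CPM after siMETTL3, or 91.6% of the siControl mean. The readthrough symbol HNRNPUL2-BSCL2 covers 99.5% of the HNRNPUL2 span and also overlaps BSCL2. The sum thus repeats reads of HNRNPUL2 and takes in reads of BSCL2, and it includes HNRNPA1P48, described below.

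HNRNPK, a poly(C) binding protein with KH domains, had the smallest FDR of the class (chr9:83968083-83980616, minus strand). HNRNPK was measured at 302, 309 and 320.0 CPM after siControl and at 248, 241 and 251 CPM after siMETTL3. The groups stood well apart, and the mean went from 311 ± 8.82 to 247 ± 5.04 CPM (SD, n = 3) (log2 fold change -0.33, SE 0.054, edgeR FDR 0.000310). HNRNPU, a chromatin-bound protein that also regulates splicing, was at 713, 714 and 852 CPM in siControl and 577, 616 and 583 CPM in siMETTL3 (log2 fold change -0.36, SE 0.072, edgeR FDR 0.00140). The siControl replicate 3 value of HNRNPU stood well above the other siControl values. COX20, which overlaps 18.5% of the HNRNPU span, was lower as well (log2 fold change -0.25, edgeR FDR 0.00663), at 81.3 and 68.5 CPM on average.

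HNRNPA1, the classical reader of splicing silencers, was at 261, 266 and 307 CPM in siControl and 225, 213 and 215 CPM in siMETTL3 (log2 fold change -0.35, SE 0.066, edgeR FDR 0.000977). HNRNPA1P48, a symbol on chromosome 16 whose span holds 23.6% of the 50-base words of the HNRNPA1 transcript, was at 172, 158 and 184 CPM in siControl and 125, 148 and 135 CPM in siMETTL3 (log2 fold change -0.33, SE 0.072, edgeR FDR 0.00281). Reads of HNRNPA1 and of its copies cannot be fully told apart, since 32.7% of the HNRNPA1 words occur in other GENCODE genes, and the values of both symbols are uncertain. HNRNPA1L2, another copy, was at 14.3, 13.8 and 12.3 CPM in siControl and 11.5, 10.7 and 14.2 CPM in siMETTL3 (edgeR FDR 0.362), with overlapping groups.

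HNRNPAB had the largest fall of the class and one of its widest errors, at 191, 230.2 and 265 CPM in siControl and 166, 176 and 162 CPM in siMETTL3 (log2 fold change -0.44, SE 0.10, edgeR FDR 0.00539). Its siControl libraries ran from 191 to 265 CPM, but none reached down to the siMETTL3 values. PHYKPL, which shares 40.6% of the HNRNPAB span, was uncalled (log2 fold change -0.068, edgeR FDR 0.342). HNRNPLL, known for its part in CD45 splicing, was at 78.8, 77.2 and 86.5 CPM in siControl and 66.0, 63.6 and 65.8 CPM in siMETTL3 (log2 fold change -0.31, SE 0.063, edgeR FDR 0.00170). Its paralog HNRNPL, which binds CA repeats, was at 193, 193 and 212 CPM in siControl and 173, 182 and 177 CPM in siMETTL3 (log2 fold change -0.17, SE 0.058, edgeR FDR 0.0367). With the GC and transcript length offset HNRNPL was at -0.27 (edgeR FDR 0.00106). The HNRNPL call was lost without siControl replicate 2 or 3 (edgeR FDR 0.0654 and 0.0584) and without siMETTL3 replicate 1, 2 or 3 (edgeR FDR 0.157, 0.0663 and 0.106).

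The members of the H and F group, which bind runs of G, went different ways. HNRNPH1 was at 418, 439 and 475 CPM in siControl and 376, 359 and 356 CPM in siMETTL3 (log2 fold change -0.29, SE 0.061, edgeR FDR 0.00218). HNRNPH3 was at 69.8, 74.3 and 83.2 CPM in siControl and 99.0, 95.1 and 93.0 CPM in siMETTL3 (log2 fold change 0.34, SE 0.069, edgeR FDR 0.00171). HNRNPH1 thus fell and HNRNPH3 rose, each with no overlap between the groups. RUFY2, which shares 17.3% of the HNRNPH3 span, rose by a like amount (log2 fold change 0.36, edgeR FDR 0.00102), and how many reads are shared was not measured. HNRNPF (95% interval -0.18 to 0.051) and HNRNPH2 (95% interval -0.22 to 0.068) were not past the threshold.

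HNRNPC and HNRNPA2B1, named above for their links to m6A, were not past the threshold. HNRNPC (chr14:21209136-21269494, minus strand) was at 501, 479 and 489 CPM in siControl and 501, 506 and 498 CPM in siMETTL3 (log2 fold change 0.034, SE 0.053, edgeR FDR 0.650). The siMETTL3 values lay near or above the top of the siControl range, and the 95% interval of -0.079 to 0.15 held the change to a small size in either direction. HNRNPA2B1 was at 558, 602 and 707 CPM in siControl and 676, 672 and 675 CPM in siMETTL3 (log2 fold change 0.12, SE 0.076, edgeR FDR 0.253). Here siControl replicate 3 was above every siMETTL3 library and the other siControl libraries were below them. Without siControl replicate 3, HNRNPA2B1 was past the threshold and higher (log2 fold change 0.22, edgeR FDR 0.000512). With all 6 libraries and the GC and transcript length offset it was past it as well (0.17, edgeR FDR 0.0215), while without siControl replicate 1 it was 0.043 (edgeR FDR 0.630). NFE2L3 overlaps 49.5% of the HNRNPA2B1 span but was low, at 13.8 CPM in siControl. CBX3 overlaps 1.29% of it, was at 265 CPM in siControl and fell (log2 fold change -0.45, edgeR FDR 0.000152).

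HNRNPDL, which controls its own mRNA through alternative splicing, also turned on single siControl libraries and on the method of the fit. It was at 95.3, 112 and 141 CPM in siControl and 93.5, 95.9 and 93.2 CPM in siMETTL3 (log2 fold change -0.30, SE 0.119, edgeR FDR 0.0787), so the siMETTL3 libraries were tight and the siControl libraries wide. Without siControl replicate 1 its log2 fold change was -0.42 (edgeR FDR 0.000274), and without siControl replicate 3 it was -0.14 (edgeR FDR 0.0775). With all 6 libraries it was past the threshold with DESeq2 (log2 fold change -0.30, DESeq2 FDR 0.0223). It was so too with a replicate block (-0.28, edgeR FDR 0.0368) and in a fit that was not robust (edgeR FDR 0.0454). Its neighbour HNRNPD, a binder of AU-rich elements, was at 164, 159 and 166 CPM in siControl and 161, 172 and 171 CPM in siMETTL3 (edgeR FDR 0.588). HNRNPM was at 298, 329 and 325 CPM in siControl and 289.6, 304 and 288 CPM in siMETTL3 (log2 fold change -0.11, edgeR FDR 0.155), and passed the threshold without siControl replicate 1 (edgeR FDR 0.0362). The offsets for gene span and for GC and transcript length brought HNRNPM past it too (-0.20 and -0.21, edgeR FDR 0.0151 and 0.00418). HNRNPA0, HNRNPA3, HNRNPR, HNRNPUL1, HNRNPUL2 and the readthrough symbol HNRNPUL2-BSCL2 had log2 fold changes of 0.060, 0.037, -0.031, -0.047, -0.0083 and -0.047, none past the threshold. With the GC and transcript length offset HNRNPUL1, HNRNPUL2 and HNRNPUL2-BSCL2 were past it and lower (-0.20, -0.15 and -0.22, edgeR FDR 0.00275, 0.0408 and 0.00190). HNRNPCL1, counted at about 1.35 CPM, could not be read (95% interval -0.95 to 0.54).

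**Figure D3:**
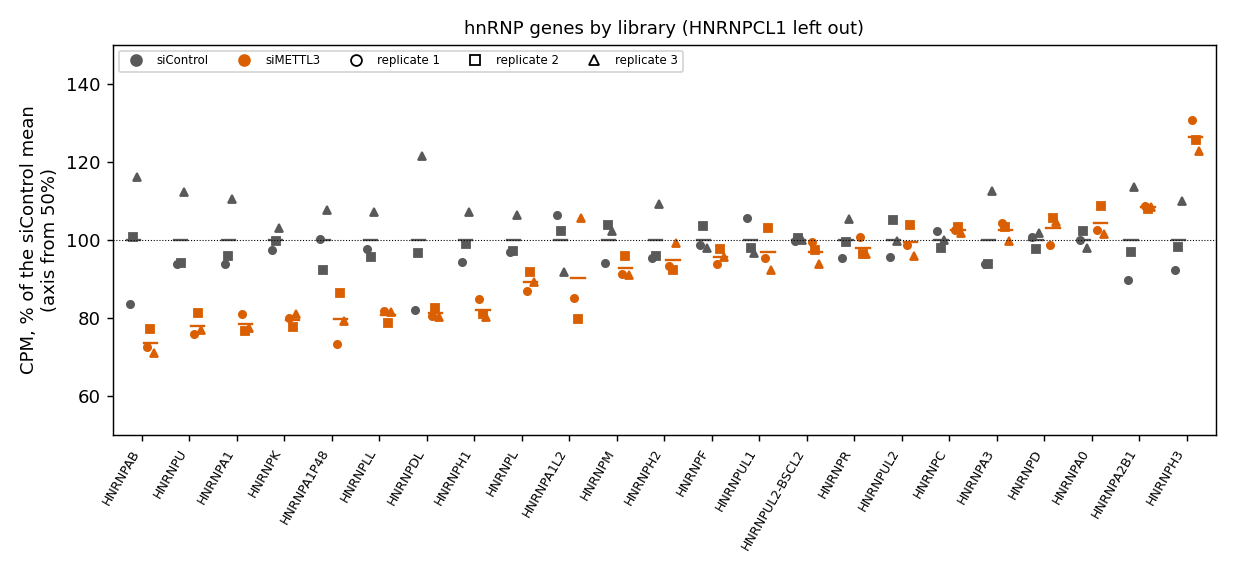
Level of 23 hnRNP genes in each library as a percentage of the siControl mean (vertical axis, which starts at 50%), with grey for siControl, orange for siMETTL3 and symbols for the replicates. HNRNPAB to HNRNPLL lie at 73.6 to 80.7% in siMETTL3 by the fitted fold change, HNRNPH3 lies at 126%, and the grey triangle of siControl replicate 3 is high in HNRNPDL and HNRNPA2B1.

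The PTB and neuronal regulators held the largest rises. SRRM4, the neuron-specific activator of microexons, was measured in a span of 182 kb (chr12:118981541-119163051, plus strand). SRRM4 was measured at 105, 93.9 and 94.4 CPM after siControl and at 129, 129 and 139.5 CPM after siMETTL3. The siMETTL3 libraries were all above the siControl libraries, and the mean went from 97.6 ± 6.07 to 133 ± 5.87 CPM (SD, n = 3) (log2 fold change 0.44, SE 0.063, edgeR FDR 0.000112). NOVA2, a neuronal RNA-binding protein, was at 46.7, 43.7 and 38.4 CPM in siControl and 52.8, 58.2 and 59.4 CPM in siMETTL3 (log2 fold change 0.40, SE 0.081, edgeR FDR 0.00160). Its paralog NOVA1 moved the other way, at 82.4, 85.0 and 90.3 CPM in siControl and 76.3, 69.4 and 73.6 CPM in siMETTL3 (log2 fold change -0.23, SE 0.063, edgeR FDR 0.0107). The NOVA1 call was lost without siMETTL3 replicate 2 (edgeR FDR 0.0597), whereas the calls of SRRM4 and NOVA2 held under every alternative that was run. Their sizes did not, since with the GC and transcript length offset SRRM4 was at 0.28 and NOVA2 at 0.19 (edgeR FDR 0.000456 and 0.0298).

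PTBP1, the repressor of neuronal exons, was at 382, 377 and 345 CPM in siControl and 350.0, 355 and 335 CPM in siMETTL3 (log2 fold change -0.085, edgeR FDR 0.277, 95% interval -0.21 to 0.041). PTBP2 was at 263, 236 and 260.4 CPM in siControl and 236, 221 and 231 CPM in siMETTL3 (log2 fold change -0.14, edgeR FDR 0.0720, 95% interval -0.27 to -0.016). Neither was past the threshold with all 6 libraries, but PTBP1 was without siControl replicate 3 (log2 fold change -0.13, edgeR FDR 0.0303) and PTBP2 without siControl replicate 2 (log2 fold change -0.19, edgeR FDR 0.0490). With the GC and transcript length offset PTBP1 was past it too (log2 fold change -0.25, edgeR FDR 0.000202). With an offset for gene span, PTBP2 was also past it (log2 fold change -0.26, edgeR FDR 0.00178). The log2 ratio of PTBP2 to PTBP1 counts, which needs no scaling, was -0.54, -0.67 and -0.40 after siControl and -0.57, -0.69 and -0.54 after siMETTL3. The means, -0.54 ± 0.13 and -0.60 ± 0.079 (SD, n = 3), differed by -0.059 (two-sided exact permutation test, p = 0.5, where 0.1 is the smallest p that 3 against 3 libraries allow). The ratio thus differed by less than the spread between replicates, and without siControl replicate 3 the difference was 0.0083.

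**Figure D4:**
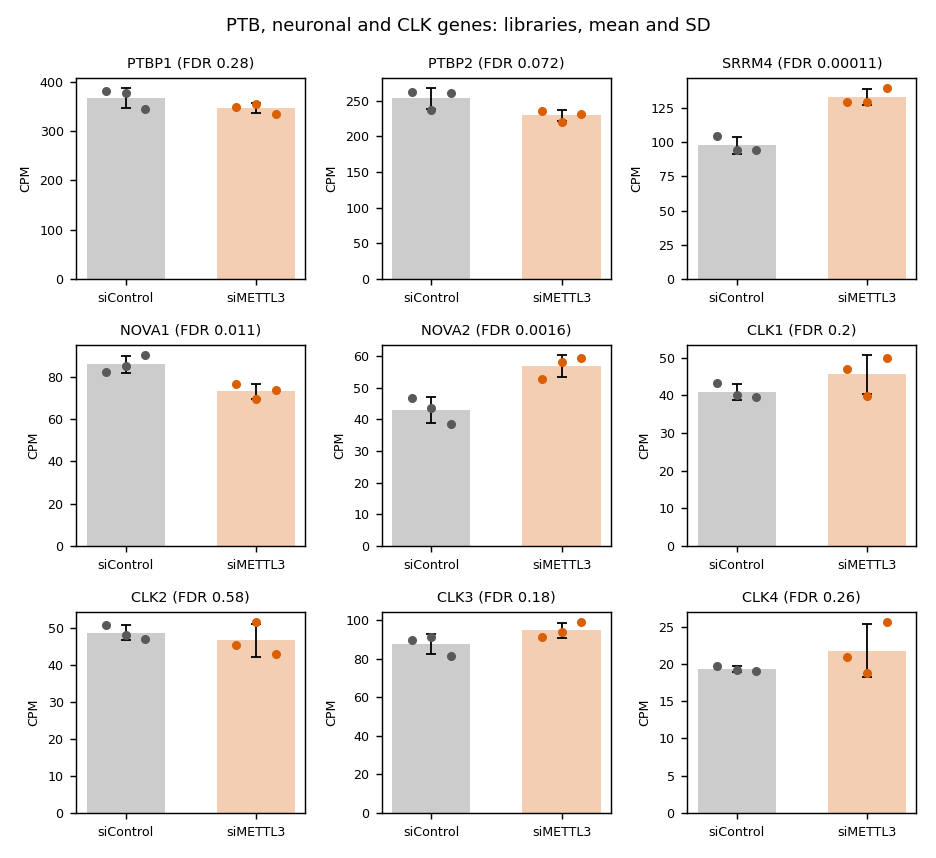
CPM of the PTB, neuronal and CLK genes by library (points), with bars for the group mean and error bars for the SD over 3 libraries. SRRM4 and NOVA2 are higher and NOVA1 is lower in siMETTL3 with no overlap, while CLK1, CLK2 and CLK4 overlap between the groups.

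The counts cover whole gene spans, introns included, so the span and its exonic share were set beside the changes. The 19 lower members had a median span of 16.0 kb, the 28 uncalled ones 22.8 kb and the 4 higher ones 40.8 kb, against 35.5 kb over all genes tested. Over all genes the lower ones were shorter too (23.9 kb, against 61.3 kb for the higher ones). Spearman's rho of span and log2 fold change was 0.366 across the 51 members and 0.185 across all genes, points that share the same 6 libraries. Exons made up a median of 32.9% of the span in the lower members and 14.9% in the higher ones, against 11.4% over all genes. With an offset that removes the trend of each library on span, 22 members were lower and 3 higher, and the 9 SR proteins stayed lower. This offset took the share of higher genes among all calls from 49.2% to 36.8%. The core of the m6A consensus, written GGACT in DNA letters, occurred on the sense strand of the canonical GENCODE transcript at a median of 0.577 sites per kb in the lower members with a transcript, 0.731 in the uncalled ones and 0.929 over all genes tested, which counts letters and not methylation. Spearman's rho of this density and the log2 fold change was 0.024 across the 50 members with a transcript and 0.0719 across all genes with one.

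**Figure D5:**
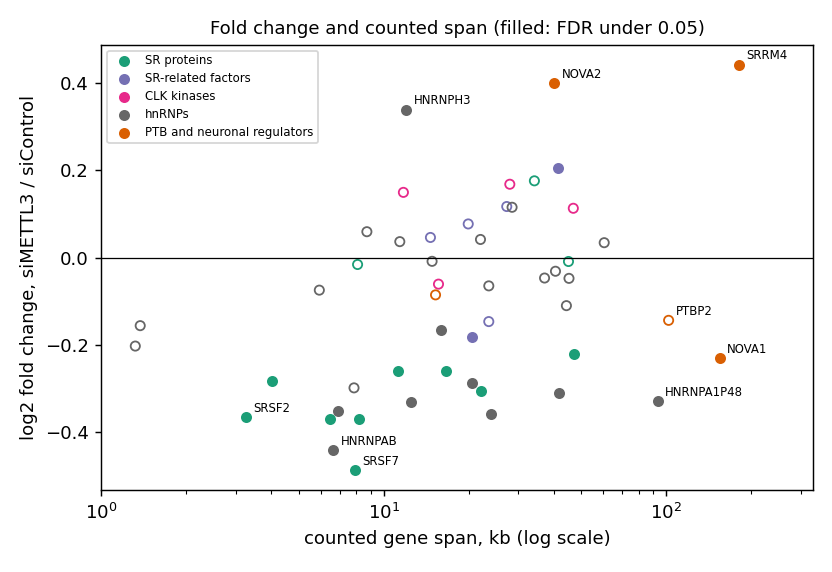
Log2 fold change of siMETTL3 over siControl (vertical axis) against the counted gene span in kb (horizontal axis, log scale) for the 51 members, coloured by role and filled where the FDR was under 0.05. Lower members crowd at short spans, SRSF2 and SRSF7 among them, while SRRM4 and NOVA1, which moved in opposite directions, have the longest spans.

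The rest of the splicing machinery was followed in lists written from general knowledge, with earlier results of these data known. Of 48 core spliceosome genes, 19 were lower, 2 higher (SF3A1 and PRPF31, named after their values were seen) and 27 not past the threshold, with a median log2 fold change of -0.12. SNRNP200, the helicase that unwinds U4 from U6, was at 330.3, 326 and 313 CPM in siControl and 226, 240.1 and 233 CPM in siMETTL3 (log2 fold change -0.47, SE 0.054, edgeR FDR 1.90e-05). PRPF19, the ubiquitin ligase of the Prp19 complex, was at 145, 149 and 142 CPM in siControl and 107, 111 and 116 CPM in siMETTL3 (log2 fold change -0.38, SE 0.056, edgeR FDR 0.000144), and its partner PLRG1 fell also (log2 fold change -0.52, edgeR FDR 0.000510). The U4/U6.U5 proteins gave 6 lower and 1 higher of 11 genes, the Prp19 and step factors 5 lower of 11, the U2 proteins 4 lower and 1 higher of 12, the U1 proteins 3 lower of 6, and the Sm ring 1 lower of 8. The shares were 39.6% lower and 4.17% higher, beside 19.2% and 18.6% of all genes. Without siControl replicate 2, and also without siMETTL3 replicate 1, 13 core genes were lower and the 2 higher calls were lost (edgeR). Without siControl replicate 3, 21 were lower and 4 higher.

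Of 42 other splicing regulators that were tested, 10 were higher, 6 lower and 26 not past the threshold (median log2 fold change -0.017). The share called, 38.1%, stood beside 37.8% of all genes. The balance of directions turned with the offsets, to 8 higher and 14 lower for gene span and to 10 higher and 15 lower for GC and transcript length. KHDRBS3, a STAR family protein, rose from 56.9 ± 6.34 to 105 ± 3.46 CPM (SD, n = 3) (log2 fold change 0.88, edgeR FDR 1.51e-06). The CELF family members CELF4 and CELF2 rose by 0.71 and 0.55 on the log2 scale (edgeR FDR 2.98e-06 and 1.26e-05). Among hnRNPs that carry other symbols, 3 of 9 were higher and 2 lower (33.3% and 22.2%, beside 18.6% and 19.2% of all genes). RALYL rose from 14.9 ± 2.63 to 39.2 ± 2.86 CPM (SD, n = 3) (log2 fold change 1.40, edgeR FDR 1.43e-06), PCBP3 by 0.53 and RALY by 0.21. The lower ones, named after their values were seen, were RBMX and SYNCRIP (log2 fold changes -0.18 and -0.16, edgeR FDR 0.0459 and 0.0418). The RALY call was lost without either of siMETTL3 replicates 1 and 2 (edgeR FDR 0.0593 and 0.0779) or with an offset for gene span (edgeR FDR 0.243). Of the 12 kinases, phosphatases and import factors that act on SR proteins or hnRNPs, 3 were higher, 3 lower and 6 gave no call. That was 25% in each direction, beside 18.6% of all genes higher and 19.2% lower. SRPK2, DYRK1A and TOP1, named after their values were seen, rose (0.26, 0.20 and 0.20 on the log2 scale, edgeR FDR 0.00323, 0.0172 and 0.00920). TNPO1, a nuclear import receptor of hnRNPs, fell from 487 ± 17.9 to 365 ± 23.1 CPM (SD, n = 3) (log2 fold change -0.42, edgeR FDR 0.000142). The kinase DYRK1B and the phosphatase subunit PPP1CA had log2 fold changes of -0.74 and -0.31 (edgeR FDR 0.000658 and 0.000705).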

How the data were processed

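The data were 6 tables of raw read counts per gene, and each library has its own. The authors counted reads, per the file headers, with featureCounts v1.5.3 on a protein-only GENCODE release 33 annotation, with the gene as the feature, so introns count. Where genes overlap, a read was given to every one of them, and no strand option was set. The submitters' processing notes also name FastQC 0.11.5, Trimmomatic 0.36, HISAT2 2.1.0 and GRCh38.

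Groups and replicate numbers came from the sample titles. Genes passing edgeR's filterByExpr (15311) were TMM-scaled and tested for siMETTL3 against siControl with edgeR 4.0.16 in R 4.3.3 (robust quasi-likelihood F-test, all 6 libraries, no covariate), and FDR values are Benjamini-Hochberg values over all genes tested. CPM values were computed from the counts. The SE was obtained from each fold change and its F statistic. Libraries of a group differed beyond sampling noise (chi-square per degree of freedom 3.05 to 16.1).

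Values by library are given for called members and for SRSF3, SRSF10, HNRNPC, HNRNPA2B1, PTBP1, PTBP2, SRRM4, NOVA1, NOVA2 and CLK1 whatever their result, and from the other lists up to 3 genes with the smallest FDR. Values by library of the other uncalled members, and the genes that overlap members, were added after their values were seen. The members and lists were chosen with earlier results of these data known. The fit was tested on simulated data of siMETTL3 against siControl: over 10 draws of about 15200 genes, 52.5% of genes changed 1.3-fold and 88.4% of those changed 2-fold were called, and 8.48% of calls were false. Gene spans and overlaps were those of the count tables, and exon and transcript features came from GENCODE release 44 on GRCh38, whose genes overlapped all 18999 spans compared. Protein composition had been planned and was not analysed here.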

Additional observations from a re-analysis of the deposited data

How the results depend on the processing

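The alternatives were other scalings, 2 other filters (none, or 10 counts as a minimum), DESeq2 1.42.0, limma 3.58.1 (voom), a fit that was not robust, a replicate block, genes without overlaps, a gene span offset, each library left out in turn and, chosen after seeing the data, a joint offset for GC and transcript length. METTL3 was lower under all of them. With libraries left out, its log2 fold change went from -0.74 to -0.69, the genes called over all genes from 4210 to 6394 (genes called higher over all genes 2091 to 3178, genes called lower over all genes 2119 to 3216), the lower members from 14 to 22, the higher members from 3 to 6, the lower SR proteins from 6 to 9, the lower hnRNPs from 7 to 10, the lower core spliceosome genes from 13 to 21, the other splicing regulators from 8 to 11 higher and 5 to 8 lower, and the difference of the PTBP2 to PTBP1 ratio from -0.13 to 0.0083. It changed sign to 0.0083 without siControl replicate 3. On genes without overlaps 3750 of 9518 genes were called (1852 higher, 1898 lower), with 2 higher members and 5 lower hnRNPs. HNRNPAB, HNRNPL, HNRNPU and HNRNPH3 were not in that fit, and SRRM1 was in it and missed the threshold. METTL3, which overlaps TOX4, was kept in. The joint GC and length offset gave 8 higher and 26 lower members, 15 lower splicing regulators (14 with the gene span offset) and a share of 40.0% higher among all calls (36.8% with the gene span offset), and the cause was not tested. DESeq2 called 5343 genes and 24 members, the 23 of edgeR among them.

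Of the 23 called members, 16 kept their call under every alternative that could be run for them, and none changed sign. Of the 138 values with a library left out, 17 missed the threshold, and of 269 others, 5 did: HNRNPL with upper quartile and total count scaling, U2AF2 with total count scaling, and SRRM1 on genes without overlaps and with the gene span offset. Of the 28 members that were not called, 5 kept their sign and stayed uncalled under every alternative. Of their 168 values with a library left out, 8 were past the threshold, and of 327 others, 23 were. Members that were not called changed sign in 22 of their values, with the cause not tested and none of these 22 past the threshold. With the joint GC and length offset these were HNRNPR (0.035), SRSF5 (0.060), CLK3 (-0.0041) and SRRM2 (-0.13). With upper quartile scaling these were HNRNPUL2 (0.0050) and SRSF5 (0.0038). With total count scaling these were HNRNPUL2 (0.015), SRSF9 (0.0082) and SRSF5 (0.016). With the gene span offset these were SRSF9 (0.0060) and HNRNPC (-0.072). With libraries left out one at a time, HNRNPA3 went from -0.0081 to 0.13, HNRNPCL1 went from -0.39 to 0.032, HNRNPR went from -0.064 to 0.0069, HNRNPUL2 went from -0.044 to 0.028, SRSF5 went from -0.049 to 0.064, SRSF9 went from -0.060 to 0.040 and U2AF1 went from -0.022 to 0.085.

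Nothing in the labels ties same-numbered libraries together. Deviations of same-numbered libraries correlated at 0.040, 0.049 and 0.067 and those of other pairs at -0.064 to 0.026, so every library correlated best with its own number, a hint from the data only. Under the replicate block 6166 genes and 25 members were called, all 23 among them, and METTL3 was at -0.71. With total counts of 15430000 to 21565013 and 3 libraries a group, changes of 1.3-fold were often missed in simulated data. Far fewer genes were changed there than were called here, so the share missed in the real comparison is not known from it.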

Other observations

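Several regulators of neuronal splicing outside the chosen families rose, as SRRM4 and NOVA2 did, and others fell. They were picked here after their values were seen, from the list of other splicing regulators, and are given as values with no test of the group. SRRM3, the paralog of SRRM4 that also promotes microexons, was at 126, 105 and 88.5 CPM in siControl and 173, 182 and 158 CPM in siMETTL3 (log2 fold change 0.68, edgeR FDR 0.00103). RBFOX1 was at 220.3, 209 and 290.3 CPM in siControl and 366, 345 and 316 CPM in siMETTL3 and RBFOX2 at 593, 564 and 582 CPM in siControl and 750.4, 734 and 753 CPM in siMETTL3 (log2 fold changes 0.52 and 0.36, edgeR FDR 0.00710 and 0.000149). ELAVL3, a neuronal Hu protein, had a log2 fold change of 0.52 (edgeR FDR 0.000375), whereas ELAVL2 and ELAVL4, also neuronal, were not past the threshold (-0.12 and 0.13, edgeR FDR 0.183 and 0.0974). The muscleblind genes MBNL2 and MBNL3 fell (log2 fold changes -0.40 and -0.39, edgeR FDR 0.000392 and 0.00483), as did QKI (-0.31, edgeR FDR 0.000920), while MBNL1 was not past the threshold (-0.088, edgeR FDR 0.324).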
